A study of Mus musculus with 4 samples.

Results

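The Ifi200 genes, also called HIN-200 or PYHIN genes, are a family of interferon-inducible genes that lie side by side in the mouse genome. Ifi202b, Ifi203, Ifi204, Ifi205, Ifi207, Ifi211, Mnda and Aim2 were taken as members, and 7 of these 8 symbols stood beside an identifier of the deposited count table, out of 22063 identifiers in all. Mnda was not analysed as a row of its own, and RefSeq lists Mnda among the synonyms of Ifi211. The members were chosen by symbol, but with the results of the comparison below known, so their fold changes, calls and adjusted p-values are given as a description of these libraries and support nothing further. The list itself sets no threshold on a value.

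Most proteins of the family carry a HIN domain, which binds DNA, and a pyrin domain, through which such proteins meet partners with a pyrin domain of their own. Interferons bind receptors at the cell surface and act through JAK kinases and STAT proteins, and a complex that holds Stat2 and Irf9 then binds interferon-stimulated response elements in the promoters of genes such as these. Members are known above all from leukocytes and from cells given interferon, as sensors of DNA that has reached the wrong place in the cell and as regulators of cell growth.

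RNA was sequenced from C22, an immortalized line of mouse cells that the labels give as wild type and as Club cells, which line small airways and secrete protective proteins. Cells of the NE group received 10 µM norepinephrine (NE), the transmitter of sympathetic nerves, for 3 h, and cells of the vehicle group received vehicle for the same time, with 2 libraries per group and line and medium in common. The labels do not say how the line was immortalized or whether interferon was among its growth supplements. As background, C22 is known as a conditionally immortalized line from a transgenic mouse whose temperature-sensitive large T antigen stands under an interferon-inducible promoter. Separate cultures for the replicates are not stated either, and p-values then measure only how far these samples lie apart, which may be technical.

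Total counts were between 14783176 and 18491334 per library, and Aim2, the member with the fewest reads, had 90 to 137 counts in each. Over the 4 libraries together, a count of 0 allows up to 0.0471 CPM, the count scaled to a library's total after normalization, for counting error only. The defining secretory markers of Club cells were nearly absent: of 14 Club cell markers 6 had 0 counts and 5 had enough for a test. Scgb1a1, which encodes the main secreted protein of these cells, had 2 counts over all libraries and Scgb3a2, Cyp2f2 and Epcam had 0. Aldh1a1 (863 ± 135 CPM in vehicle and 780.3 ± 11.7 in NE, SD, n = 2 each), Krt8 (874 ± 29.9 and 926 ± 34.8) and Krt18 (591 ± 60.2 and 623 ± 15.8) were abundant, as was the mesenchymal collagen gene Col1a1 (1276 ± 127 and 1125 ± 3.92). Of 12 mesenchymal markers 2 had 0 counts, 9 had enough for a test and 6 averaged 10 CPM or more. Their summed level was 7359 and 6838 CPM in vehicle and 6714 and 6445 CPM in NE. The 14 Club cell markers summed to 2364 and 2299 CPM in vehicle and 2290 and 2377 CPM in NE.

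The family is a single cluster on chromosome 1. In the GENCODE M21 annotation the order runs from Aim2 through Ifi206, Ifi214, Ifi213, Ifi209, Ifi208, Ifi207, Ifi204, Mndal, Ifi211, Ifi203 and Ifi202b to Ifi205. The 7 neighbouring genes from Ifi207 to Ifi205 were all found at 10 CPM or more on average, 6 of them members and the other one Mndal. The 5 genes between Aim2 and Ifi207, none of them a member, were almost silent: over the 4 libraries Ifi209 had 22 counts, Ifi214 and Ifi208 had 6 each, Ifi206 had 2 and Ifi213 had 1. All 6 counts of Ifi208 came from the first NE library. Aim2, at the other end, had 445 counts. Outside the cluster the nearest 5 listed genes on either side, among them Cadm3, Ackr1 and olfactory receptor genes, held 1 count in all.

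**Figure D1:**
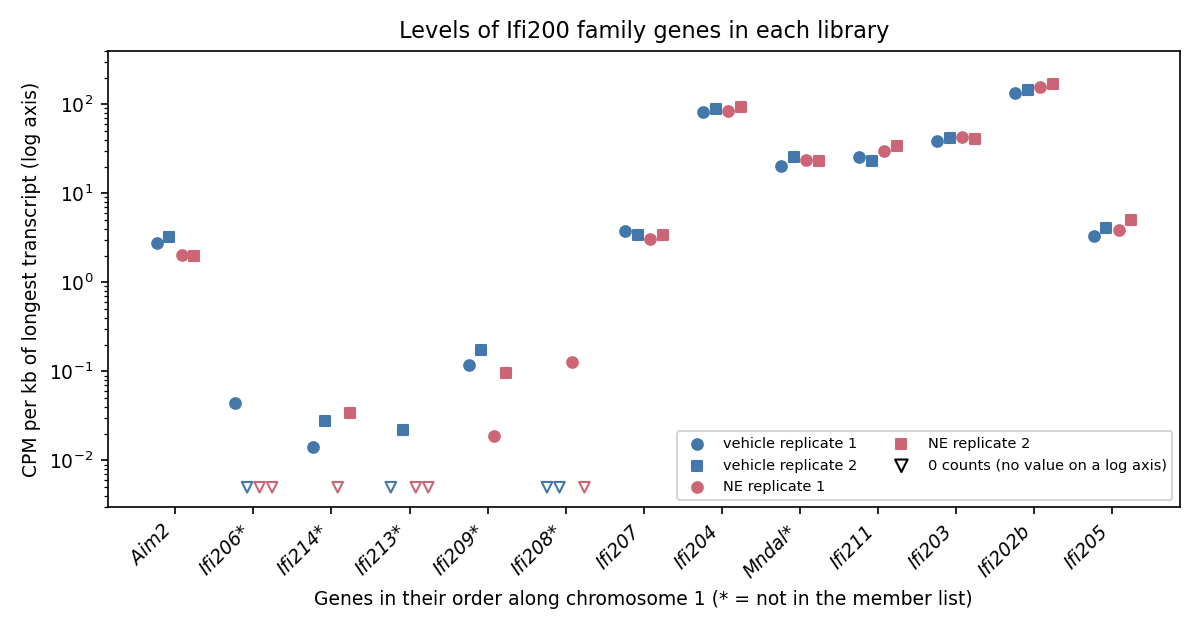
Level of each Ifi200 family gene per library, in CPM per kilobase of the longest annotated transcript on a log axis, with genes in their order along chromosome 1. Ifi202b, Ifi204, Ifi203, Ifi211 and Mndal lie above 20 in every library, Aim2, Ifi207 and Ifi205 between 1.96 and 5.02, and the 5 genes between Aim2 and Ifi207 below 0.2 or at 0 counts (open triangles).

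Promoter sequences were available from RefSeq (build GRCm38.p6, a different build from that of the counts) for 12 of the 13 family genes, of which 6 are members. Ifi204 is the gene without one. The 250 bases before the annotated start were searched on both strands for GAAA, any 2 bases and GAAA, the core of the interferon-stimulated response element, and for TTC, any 3 bases and GAA, the core of the gamma-activated site, an element named for interferon gamma. The first core was found in 4 of the 6 member genes (66.7%) and in 5 of the 6 other family genes, against 3.46% of all 27025 genes with a promoter in the table. It was found in 19 of 44 other interferon-stimulated genes (43.2%). The second core was found in 1 of the 6 members, against 8.13% of all genes. No test was made of these shares, and a match in a window is a description and not a site of binding. The 6 member promoters are shown so that those with the first core (Ifi211, Ifi207, Ifi203 and Ifi205) can be set beside those without it (Ifi202b and Aim2). All are reference sequences. The labels do not give the strain behind C22, so the promoters in these cells may differ, that of Ifi202b included. Bases of a motif core are in capitals and each sequence ends at the base before the start.
Ifi211 (chr1:173913047-173913296, minus strand): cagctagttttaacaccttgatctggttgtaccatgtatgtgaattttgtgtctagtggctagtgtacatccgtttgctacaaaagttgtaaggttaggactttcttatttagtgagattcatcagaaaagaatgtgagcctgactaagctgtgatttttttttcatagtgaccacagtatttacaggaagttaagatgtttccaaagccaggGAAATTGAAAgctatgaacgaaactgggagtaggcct
Ifi207 (chr1:173741810-173742059, minus strand): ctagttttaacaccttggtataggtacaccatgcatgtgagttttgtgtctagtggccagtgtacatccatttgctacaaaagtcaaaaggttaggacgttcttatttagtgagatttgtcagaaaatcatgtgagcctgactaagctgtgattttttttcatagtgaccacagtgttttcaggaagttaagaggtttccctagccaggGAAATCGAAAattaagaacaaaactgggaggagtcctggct
Ifi203 (chr1:173942493-173942742, minus strand): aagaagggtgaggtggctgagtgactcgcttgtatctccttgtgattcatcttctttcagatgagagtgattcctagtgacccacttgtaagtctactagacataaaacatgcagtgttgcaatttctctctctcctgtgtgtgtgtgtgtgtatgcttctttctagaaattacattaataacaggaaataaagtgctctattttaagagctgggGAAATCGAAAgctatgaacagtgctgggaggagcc
Ifi205 (chr1:174031756-174032005, minus strand): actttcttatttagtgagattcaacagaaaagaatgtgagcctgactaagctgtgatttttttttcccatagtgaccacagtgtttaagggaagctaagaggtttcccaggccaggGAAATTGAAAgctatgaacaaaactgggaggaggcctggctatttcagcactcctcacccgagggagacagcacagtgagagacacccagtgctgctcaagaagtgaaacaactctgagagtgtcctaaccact
Ifi202b (chr1:173982845-173983094, minus strand): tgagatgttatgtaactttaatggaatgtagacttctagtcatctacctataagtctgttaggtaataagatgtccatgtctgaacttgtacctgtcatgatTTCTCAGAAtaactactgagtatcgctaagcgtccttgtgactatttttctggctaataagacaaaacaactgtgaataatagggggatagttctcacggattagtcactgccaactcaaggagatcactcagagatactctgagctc
Aim2 (chr1:173420354-173420603, plus strand): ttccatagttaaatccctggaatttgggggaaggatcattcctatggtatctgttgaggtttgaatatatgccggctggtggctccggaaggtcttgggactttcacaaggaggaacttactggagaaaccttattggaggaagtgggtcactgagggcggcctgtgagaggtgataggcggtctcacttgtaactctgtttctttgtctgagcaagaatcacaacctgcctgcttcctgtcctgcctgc

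The response element core of Ifi211 began 37 bases before the start, that of Ifi207 41 and that of Ifi203 35 bases before it, and that of Ifi205 134 bases before it. A further annotated start of Ifi203 had no core. The windows of Ifi211 and Ifi207 were 84.8% identical by edit distance over 250 bases, although the levels of these genes per kilobase, given below, were far apart. Among the nearly silent genes the same core stood before Ifi206, Ifi208, Ifi213 and Ifi214. Presence of the core in these reference windows thus did not separate the genes with transcripts in C22 cells from those without.

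**Figure D2:**
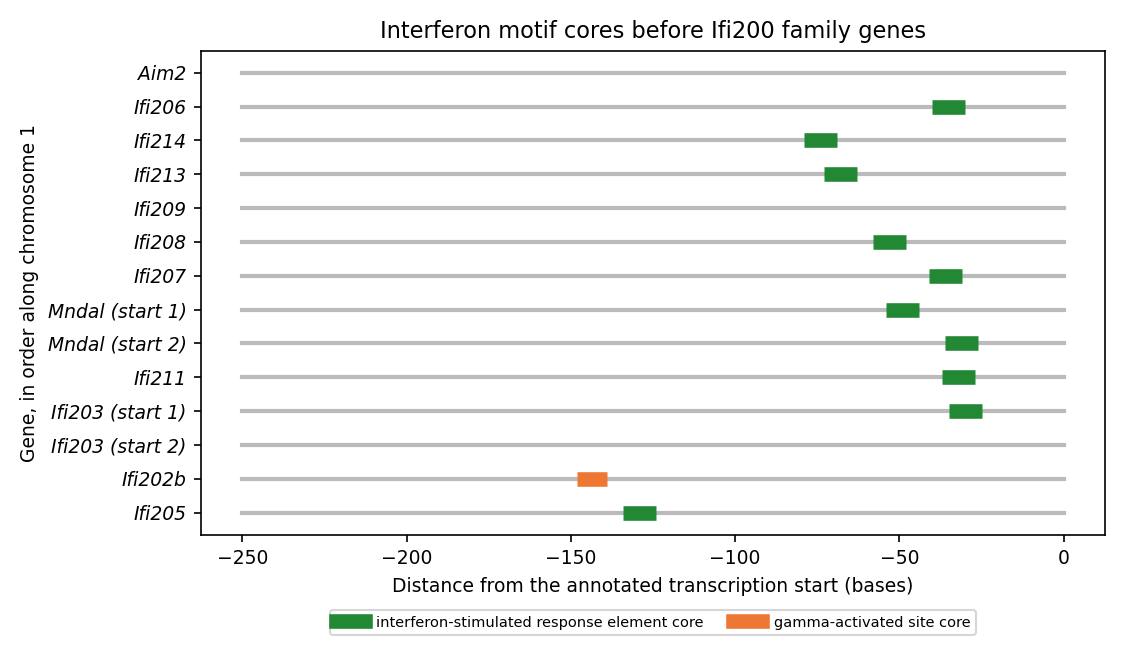
Position of each motif core, in bases from the annotated start, in the 250 bases before 12 Ifi200 family genes (grey lines; genes with several annotated starts have a line for each). The response element core lies between 79 and 35 bases before the start in most genes that hold it and 134 bases before it in Ifi205, while Aim2 and Ifi209 hold neither core and Ifi202b holds the gamma-activated site core at 148 bases.

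Copies in the family resemble each other so closely that reads can be counted for the wrong gene. The members differ widely in this. Of all distinct 50-base stretches in the annotated transcripts of Ifi211, 72.8% also stood in a transcript of another gene, 44.7% in Ifi205, 30.1% in Ifi204 and 17.1% in Mndal. The share was 20.02% for Ifi204, 18.6% for Ifi205, 12.4% for Ifi203, 7.29% for Ifi207, 0.742% for Aim2 and 0 of 1648 stretches for Ifi202b. With stretches of 100 bases Ifi211 still shared 56.9%, Ifi205 15.04%, Ifi204 10.7%, Ifi203 2.84% and Ifi207 0.79%, and Aim2 and Ifi202b shared 0. These are shares of annotated sequence and not of counted reads. The sources used here give neither the read length nor how reads that match several genes were counted.

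The longest identical stretch within the family was 495 bases long and lay in the coding parts of Ifi211 and Ifi205. The 30 bases before it (lower case) and its first 90 bases (capitals) are shown from both transcripts, since a read from within the capitals could not be told apart by its letters.
Ifi211 (transcript positions 835 to 954): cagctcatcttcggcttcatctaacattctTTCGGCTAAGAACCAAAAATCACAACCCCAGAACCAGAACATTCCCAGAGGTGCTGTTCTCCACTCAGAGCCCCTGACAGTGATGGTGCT
Ifi205 (transcript positions 671 to 790): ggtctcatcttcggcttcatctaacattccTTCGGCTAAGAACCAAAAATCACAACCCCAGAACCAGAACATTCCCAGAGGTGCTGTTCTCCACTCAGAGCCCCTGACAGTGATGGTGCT
Ifi204 and Ifi211 shared an identical stretch of 306 bases, partly coding, and Mndal shared 182 bases with Ifi211 and with Ifi205. The exons of Mndal and Ifi203 also overlap on the same strand in the annotation, by 37 bases.

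**Figure D3:**
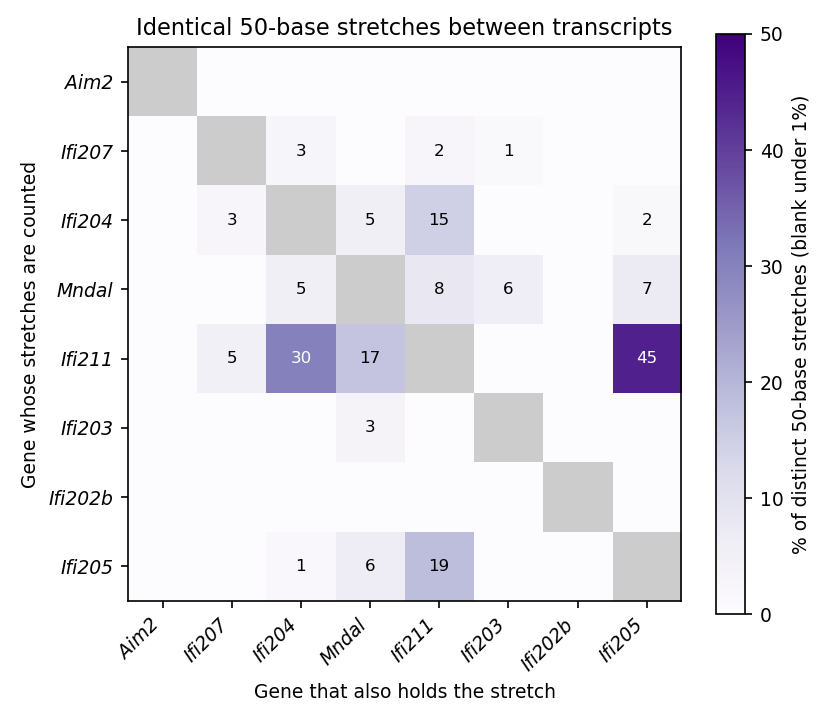
Percent of the distinct 50-base stretches in the annotated transcripts of each gene (rows) that also stand in a transcript of another family gene (columns), for the 8 family genes with enough counts for a test; grey cells are a gene with itself. The row of Ifi211 holds the darkest cells, with 44.7% shared with Ifi205 and 30.1% with Ifi204, and the rows of Ifi202b and Aim2 are blank.

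Levels can be ordered only per length, and the lengths used here count shared stretches in full. As the counting of reads that match several genes is unknown, the order is uncertain. This holds above all for Ifi211, with 72.8% of its 50-base stretches shared. In CPM per kilobase of the longest annotated transcript, as mean over the 4 libraries with the lowest and highest, Ifi202b led at 152 (135 to 171), followed by Ifi204 at 87.7 (82.4 to 94.5), Ifi203 at 41.2 (38.8 to 43.0) and Ifi211 at 28.3 (23.0 to 34.0). Then came Ifi205 at 4.08 (3.31 to 5.02), Ifi207 at 3.40 (3.11 to 3.73) and Aim2 at 2.49 (1.96 to 3.24). Ranges overlapped between Ifi205 and Ifi207 and between Ifi207 and Aim2, and between no other neighbours in this order. With the length of all annotated exons in place of the longest transcript, Ifi211 stood above Ifi203 and Ifi207 above Ifi205. Ifi202b stood above 97.6% of the 14902 genes with a count and a known length, Ifi204 above 95.2% and Aim2 above 37.8%. Of all reads counted for members, Ifi202b, Ifi204 and Ifi203 took 37.2%, 28.9% and 22.1%.

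After NE, 1 of the 7 members was called higher than in vehicle and 0 were called lower by edgeR, at an adjusted p under 0.05 over all 11418 genes tested, of which 0.342% were called higher, 1.23% lower and 1.57% either way (39 and 140 genes, or 15 and 129 with total counts as scaling). DESeq2 called 0 members, against 0.508% of all genes, and limma voom 1, against 1.9%. All 7 members with a row passed the filter on low counts. The share of members called is not read as a result, since the list was drawn up with these calls known. The member called higher was Ifi211, with a fold of 1.32, and members differed in direction, with 5 log2 fold changes above 0 and 2 below (median 0.07, against -0.00011 over all genes tested). CPM of the groups did not overlap for 4 of the 7, against 49.2% of all genes tested. With an unadjusted p under 0.05 there were 3 members, Ifi211, Ifi202b and Aim2, and 17.3% of all genes.

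**Figure D4:**
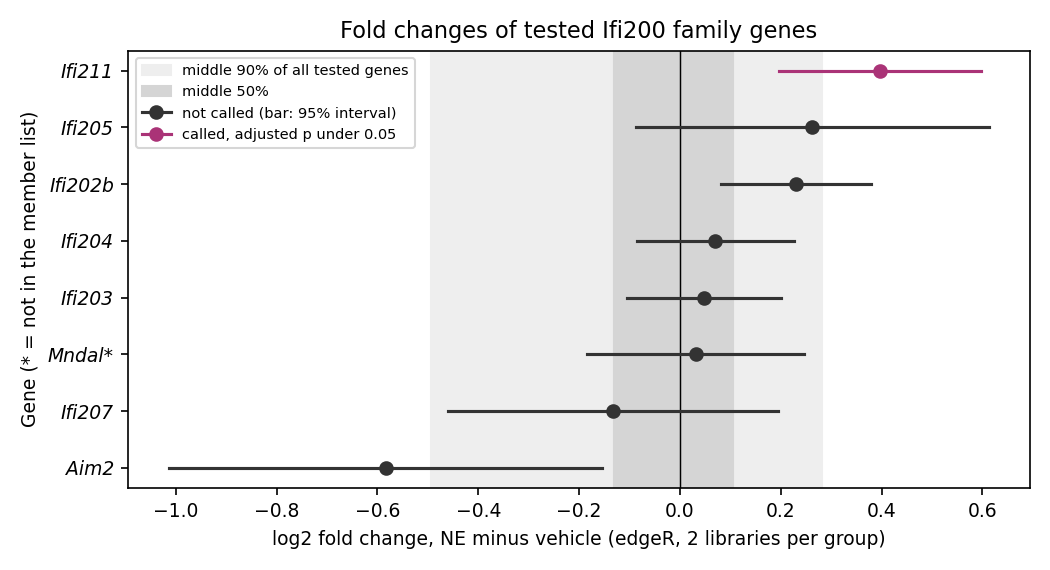
Log2 fold change, NE minus vehicle, of the 8 Ifi200 family genes tested, with 95% intervals from edgeR and 2 libraries per group. Ifi211 lies at 0.40 and is called (purple), Aim2 lies lowest at -0.58 with the widest interval, and Ifi203, Ifi204 and Mndal lie inside the middle 50% of all tested genes (dark band).

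Aim2 encodes the sensor that binds double-stranded DNA in the cytosol and recruits the adaptor Pycard and caspase-1 into an inflammasome. Its level was 7.80 and 9.20 CPM in the vehicle libraries and 5.77 and 5.57 CPM in the NE libraries, from 116, 137, 90 and 102 counts. Both NE libraries lay below both vehicle libraries. The log2 fold change was -0.58 ± 0.20 (SE; 95% interval -1.01 to -0.16), and it was not called by edgeR (adjusted p = 0.150). It was below 0 in all 12 alternative settings, between -0.46 and -0.70 when single libraries were left out, and called in none of them.

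Ifi202b encodes p202, which has HIN domains but no pyrin domain and is known to hold back Aim2 by competing for DNA. Levels of Ifi202b are known to differ between inbred strains of mice, and the labels do not give the strain behind C22. It was found at 229 and 247 CPM in vehicle and at 268 and 289.5 CPM in NE. Both NE libraries lay above both vehicle libraries, the reverse of Aim2. Its log2 fold change was 0.23 ± 0.07 (95% interval 0.08 to 0.38, edgeR adjusted p = 0.102, not called). Without the second vehicle library edgeR called it, at 0.29 (adjusted p = 0.0120), with the lone vehicle library then assumed to vary like the NE libraries.

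Ifi204 encodes p204, the mouse family member most often set beside human IFI16, known for DNA sensing and for binding the retinoblastoma protein during differentiation. It was found at 189 and 204 CPM in vehicle and 195.5 and 217 CPM in NE. The groups overlapped, and the log2 fold change was 0.07 ± 0.07 (95% interval -0.09 to 0.23, edgeR adjusted p = 0.675). Ifi203, an interferon-inducible member of the same cluster, was found at 146 and 158 CPM in vehicle and 161 and 153 CPM in NE. The groups overlapped here too (0.05 ± 0.07, 95% interval -0.10 to 0.20, adjusted p = 0.781). Neither was called, and without the second NE library Ifi204 stood at -0.0071, and without the first vehicle library Ifi203 at -0.011.

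Ifi211, for which RefSeq also lists the name Ifi205b, was found at 46.1 and 41.1 CPM in vehicle and 54.0 and 60.7 CPM in NE, from 686, 612, 843 and 1111 counts. Both NE libraries lay above both vehicle libraries. The fold was 1.32, a log2 fold change of 0.40 ± 0.09 (95% interval 0.20 to 0.60, edgeR adjusted p = 0.0442). limma voom also called it (adjusted p = 0.0415), and DESeq2 did not (adjusted p = 0.108). It was not called when scaled by total counts (adjusted p = 0.0610), with each library's trend on transcript length removed (0.0843), and without the second vehicle library (0.0724), the first NE library (0.0901) or the second NE library (0.612). The log2 fold change stayed between 0.31 and 0.48 in these settings.

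**Figure D5:**
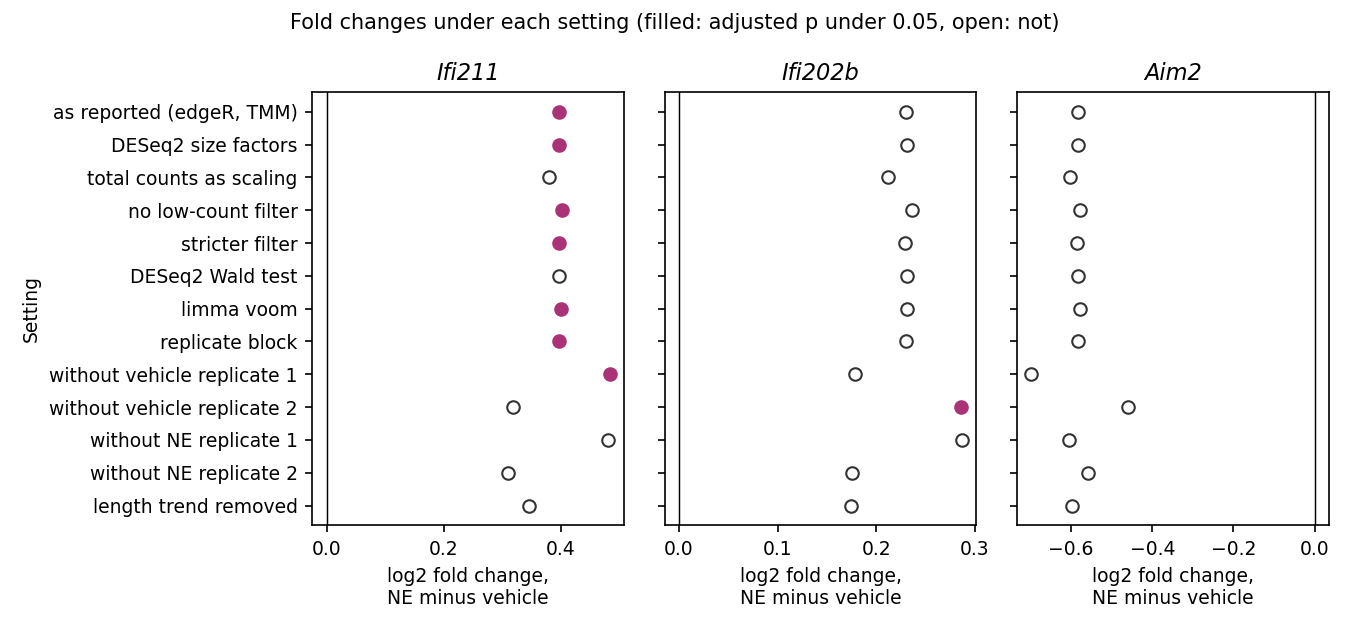
Log2 fold change, NE minus vehicle, of Ifi211, Ifi202b and Aim2 as reported and under 12 alternative settings; filled points have an adjusted p under 0.05. Each gene keeps its side of 0 in all settings, Ifi211 is called in 7 of 13, Ifi202b only without the second vehicle library and Aim2 in none.

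Because most of the sequence of Ifi211 is shared, its counts were also added to those of the genes it shares with. Ifi211 and Ifi205 together had 56.9 and 54.6 CPM in vehicle and 66.6 and 77.1 CPM in NE. The sum lay higher in both NE libraries (mean log2 difference 0.36, no test). Ifi211 itself held 43.6 of the mean 55.8 CPM in vehicle, so this sum mostly follows Ifi211. With Ifi204 and Mndal added, the sum was 288 and 309.9 CPM in vehicle and 310.1 and 341 CPM in NE. The log2 difference was 0.12, with the highest vehicle and the lowest NE library nearly level. Ifi204 held 197 of the mean 299 CPM in vehicle, so this larger sum mostly follows Ifi204. Whether reads moved between these genes was not tested.

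Ifi205 was found at 10.8 and 13.5 CPM in vehicle and 12.6 and 16.4 CPM in NE, and the groups overlapped (log2 fold change 0.26 ± 0.17, 95% interval -0.09 to 0.61, edgeR adjusted p = 0.440). Ifi207 was found at 12.8 and 11.61 CPM in vehicle and 10.6 and 11.58 CPM in NE. Its NE libraries lay below both vehicle libraries, but the nearest of them were almost level (-0.13 ± 0.15, 95% interval -0.46 to 0.20, adjusted p = 0.713). Mndal, a family gene outside the member list, was found at 41.6 and 51.4 CPM in vehicle and 47.9 and 47.1 CPM in NE, with overlapping groups (0.03 ± 0.10, 95% interval -0.18 to 0.25, adjusted p = 0.908).

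The 7 members together had 641 and 684 CPM in vehicle and 708 and 753 CPM in NE, or between 0.0644% and 0.0746% of all counts. Both NE libraries lay above both vehicle libraries, as they did for 24.6% of all genes tested. The mean log2 difference was 0.14, and the pooled SD between replicates, from 2 libraries per group, was 0.06. No test was made of the sum, whose members were chosen with these results known. The difference was 0.12 without Ifi211. Ifi202b alone went from a mean of 238 CPM in vehicle to 279 in NE, and the sum from 663 to 731. Much of the rise in the sum thus lies in Ifi202b, and the sum without this gene was not taken. The share of member reads that Ifi202b took was 35.7% and 36.0% in vehicle and 37.9% and 38.4% in NE. The share of Aim2 was 1.22% and 1.34% in vehicle and 0.814% and 0.74% in NE. Fewer cells that carry a transcript and less of it per cell cannot be told apart in such bulk samples.

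Over the 4 libraries the tested gene most like Ifi202b in its pattern, measured as the root mean square difference of centred log2 CPM, was Vps26a (0.0085), followed by Aspscr1 (0.0087), Yju2 (0.0089), Dnttip1 (0.0098) and Etf1 (0.0127). They were found among 8990 genes that averaged 10 CPM or more, and 4 libraries give few points for such a likeness. Among family genes, Ifi204 came at rank 1418, Ifi203 at 3006, Ifi205 at 3548, Mndal at 3837, Ifi211 at 3910 and Ifi207 at 7060.

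Interferon ligand genes were nearly silent, and no gene of the receptor pathway was called. Of 10 interferon ligand genes 8 had 0 counts, among them Ifng, while Ifnb1 had 23 counts and Ifna2 had 1. Of 23 genes of interferon receptors and JAK-STAT signalling 22 could be tested (median log2 fold change -0.02). Calls by edgeR, DESeq2 and limma voom were 0 among them, against 1.57%, 0.508% and 1.9% of all genes tested. Before adjustment, 1 of the 22 had an edgeR p under 0.05, against 17.3% of all genes. That gene was Tyk2, the kinase of the type I receptor, at 25.2 and 26.1 CPM in vehicle and 19.4 and 20.5 in NE (-0.36 ± 0.11, edgeR adjusted p = 0.102). Stat2, of the complex that binds the response element, went from 168 ± 1.95 CPM in vehicle to 153 ± 13.4 CPM in NE (-0.13 ± 0.07, adjusted p = 0.378). Stat3 stood at 0.14 ± 0.08 and the interferon gamma receptor gene Ifngr2 at 0.10 ± 0.07 (adjusted p = 0.371 and 0.481).

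Partners of Aim2 were present only in part. Casp1 was found at 36.6 ± 0.459 CPM in vehicle and 40.3 ± 2.89 in NE (0.14 ± 0.10, edgeR adjusted p = 0.486) and the pore protein gene Gsdmd at 122 and 119.5 CPM on average, whereas Pycard, the adaptor between Aim2 and caspase-1, had 7 counts over the 4 libraries and Il1b had 0. Of 18 inflammasome genes 9 could be tested, and 1 was called, against 1.57% of all genes with edgeR and 1.9% with limma voom. The 1 called, by edgeR and by limma voom but not by DESeq2, was Il18bp, whose product binds and neutralizes interleukin-18. It had 7.12 and 8.53 CPM in vehicle and 3.65 and 3.66 in NE (-1.10 ± 0.23, adjusted p = 0.0313), and 2.64% of its exon bases overlap Numa1 on the other strand. The call was lost without the first NE library (adjusted p = 0.130) and without the second (0.427). Nek7 and Casp8 stood at 0.13 ± 0.07 and 0.15 ± 0.09 (adjusted p = 0.370 and 0.415).

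Of 18 genes of other nucleic acid sensing pathways, edgeR called 0, DESeq2 0 and limma voom 1. Over all genes tested these methods called 1.57%, 0.508% and 1.9%. Before adjustment, 3 of the 18 had an edgeR p under 0.05, against 17.3% of all genes. The one called by limma voom was Tlr3, the receptor of double-stranded RNA (70.9 and 70.0 CPM in vehicle against 54.7 and 58.1 with NE, a log2 difference of -0.32 ± 0.08, edgeR adjusted p = 0.0529, limma voom adjusted p = 0.04996). In edgeR Tlr3 was called without a low-count filter (adjusted p = 0.0444), with a stricter one (0.0483) and with the replicate number as a block (0.0379). It was not called in edgeR with total counts as scaling (0.0509), DESeq2 size factors (0.0570) or the length trend removed (0.0813). The log2 fold change of Tlr3 lay between -0.36 and -0.27 when single libraries were left out. Sting1, which relays the signal of the DNA sensor Cgas, was found at 50.4 and 49.2 CPM in vehicle and 41.8 and 40.0 in NE (-0.28 ± 0.09, adjusted p = 0.112). Rnaseh2a stood at 0.20 ± 0.08 and Adar at -0.11 ± 0.07 (adjusted p = 0.227 and 0.419). Of Tlr3, Sting1, Rnaseh2a and Adar, 3 have exons that overlap another gene. The overlap covers 16.8% of the exon bases of Adar, 9.66% of Rnaseh2a (with Gm49661) and 7.32% of Tlr3. Others of the 18 overlap too, among them Trex1 over 100% (with Atrip, on the same strand), Rnaseh2c over 24.8% and Ddx41 over 17.4%. As the strand setting of the counting is unknown, all values of genes with such overlaps are uncertain, those of Tyk2 (8.07%), Pycard (12.8%), Il18bp, Uba7 and Csf1r included.

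Of 54 other interferon-stimulated genes 52 were tested. Of these edgeR called 3 lower and 0 higher, against 1.23% and 0.342% of all genes tested. Among the 52, 33 had a negative and 19 a positive log2 fold change (median -0.05), against 5713 negative of all 11418 genes tested. At an unadjusted edgeR p under 0.05, 10 were lower and 2 higher. Together these are 12 of the 52, against 17.3% of all genes in either direction. The 3 called were Oas2, which makes the second messenger that activates RNase L (172 and 216 CPM in vehicle, 145 and 114 in NE, -0.58 ± 0.11, adjusted p = 0.0164), Rsad2, the antiviral enzyme viperin (27.2 and 24.6 against 19.9 and 14.2 CPM, -0.61 ± 0.14, adjusted p = 0.0428), and Uba7, the activating enzyme for Isg15 (39.5 and 37.1 against 27.6 and 25.5 CPM, -0.53 ± 0.10, adjusted p = 0.0220). Parp14 stood at -0.22 ± 0.07 (adjusted p = 0.104). DESeq2 called 1 of the 52, Uba7, and limma voom called 3, against 0.508% and 1.9% of all genes. Uba7 shares 3.48% of its exon bases with Gm20661 on the same strand. Without the second NE library none of the 3 was called by edgeR (adjusted p from 0.408 to 0.640), Uba7 was also lost without the first (0.0660), and Rsad2 with the length trend removed (0.0683). Whether the members differ from these genes was not tested.

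Genes of the family are best known from leukocytes, and the defining markers of those cells were at or near 0 counts. Ptprc had 1 count over the 4 libraries, Spi1, Tyrobp, Itgax, Cd79a and Cd52 had 0, and Itgam had 3. The counts of Itgam and Cd52 are uncertain. Itgam shares 68.7% of its exon bases with Gm49368 on the same strand, and Cd52 14.5% with Crybg2 on the other strand. Of 20 leukocyte markers 3 had enough counts for a test, Cd14, Csf1r and Cd68, which are not limited to leukocytes. Of these edgeR, DESeq2 and limma voom each called 0, against 1.57%, 0.508% and 1.9% of all genes tested. Before adjustment, 1 of the 3 had an edgeR p under 0.05, against 17.3% of all genes. Over all 20 markers the summed level was 22.5 and 40.9 CPM in vehicle and 40.2 and 45.5 CPM in NE, with the first vehicle library lowest and the groups overlapping. Csf1r, which shares 15.1% of its exon bases with Hmgxb3 on the other strand, had 1.81 CPM in the first vehicle library and 9.23 to 11.6 CPM in the others. Cd14 stood at 15.7 and 25.6 against 27.9 and 30.2 CPM. The part of these genes in the members' values was not tested.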

How the data were processed

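The authors deposited raw read counts per gene, 1 column per library, in whole numbers, per the column names. Per the submitters' processing notes, the build was GRCm39 (mm39). The sources used here name no aligner, counter, annotation or strand setting. Columns were matched to samples by the library descriptions. Identifiers without a symbol (30, with 0.000742% of the counts) were left out. Members and gene lists were chosen with earlier results of these data known.

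The filter was filterByExpr with a minimum count of 10 and total of 15. Counts were scaled by TMM and tested with edgeR 4.0.16 (quasi-likelihood, group only) in R 4.3.3, with Benjamini-Hochberg adjustment over 11418 genes. SE was taken from the log2 fold change and the F statistic. CPM uses TMM-scaled totals and is given per library or as mean ± SD. The procedure was tested on simulated counts. DESeq2 1.42.0 and limma 3.58.1 were alternatives. Lengths, gene order and shared stretches came from GENCODE M21 (GRCm38), by identifier. Named genes were all members, other family genes with counts, up to 4 genes of each list (called first, then smallest p) and the 5 most like Ifi202b. Genes flanking the cluster, interferon ligands, markers at or near 0 counts, Gsdmd, Pycard, Il1b, Trex1, Rnaseh2c and Ddx41 fall outside this rule. They were named after their values were seen.

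No pair of libraries agreed within sampling noise (chi-square per degree of freedom 4.53 to 13.4). The NE libraries stood at 4.53 from each other and the vehicle libraries at 6.52. The second vehicle and first NE library stood at 6.14, so a pair across groups lay closer than the vehicle replicates. Some items are not reported here.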

Additional observations from a re-analysis of the deposited data

How the results depend on the processing

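The count of members called higher, 1, was 0 with total counts as scaling, with the DESeq2 Wald test and with the length trend removed, and between 0 and 1 when single libraries were left out; the cause was not tested. The count of members called lower was 0 in edgeR and in all 12 other settings, DESeq2 and limma voom included, with 1 member (Aim2) lower at an unadjusted edgeR p under 0.05. Over the interferon lists, with 52, 22, 18 and 9 tested genes and Mndal, 4 genes were called in edgeR and 1 with the DESeq2 Wald test. Of all genes tested 1.57% and 0.508% were called. The count over the lists varied when single libraries were left out, as did that over all genes, given below. The summed level of the members stood at 0.14 with DESeq2 size factors and 0.12 with total counts. Among single genes, 384 values under alternatives kept their direction and their side of the threshold, 16 lost and 14 gained a call, and 6 changed sign: Mndal stood at -0.0099 with the length trend removed and ranged from -0.11 to 0.19 when single libraries were left out, Ifi204 from -0.0071 to 0.15, Ifi203 from -0.011 to 0.11, Aldh1a1 from -0.29 to 0.025 and Krt18 from -0.022 to 0.19. The labels do not say whether the replicate numbers pair the samples. Deviations of replicate 1 in both groups correlated at -0.055 across genes. With only 2 possible pairs, this value cannot decide whether samples were paired. With the number as a replicate block, 84 genes were called higher and 236 lower, against 39 and 140, the count of members called higher stayed at 1 (Ifi211, adjusted p = 0.0275) and that over the lists was 5. Over all genes the counts were 13 higher and 45 lower with DESeq2, 85 and 229 without a low-count filter, 15 and 129 with total counts, 9 and 46 with the length trend removed, and from 2 and 2 (without the second NE library) to 316 and 429 (without the second vehicle library). Depth limits Aim2, Ifi205 and Ifi207, at 90 to 301 counts a library.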
